A study of Mus musculus with 30 samples.

Results

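The collagen genes are described here across tumors of 5 mouse fibrosarcoma lines. A gene of the count table was taken as a member when its mouse symbol read Col, a number, the letter a and a second number, which gave 44 of the 48440 genes in the table. They divide into 11 fibrillar collagens, 6 network collagens of the basement membrane, 3 short-chain network collagens, 6 chains of the beaded filament collagen VI, 1 anchoring fibril collagen, 9 FACIT collagens (which attach to the surface of fibrils), 4 transmembrane collagens, 2 multiplexins and 2 others. Counts were high enough for testing in 38 members, and the 6 without enough counts were Col4a3, Col4a4, Col9a1, Col19a1, Col22a1 and Col26a1.

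RNA sequencing covered 30 tumors that had grown in C57BL/6 mice from cell lines, each line established from 1 primary tumor induced by the carcinogen methylcholanthrene (MCA). The groups were MCA943 (4 tumors), MCA948 (8 tumors), MCA969 (8 tumors), MCA970 (6 tumors) and MCA972 (4 tumors). Dissociated tumors had been depleted of CD45+ hematopoietic cells with magnetic beads before RNA extraction. The study asked how lines that are sensitive to NK1.1+ cells, a population that includes natural killer (NK) cells, differ from lines that are not, and it treated MCA943 and MCA969 as non-sensitive and MCA948, MCA970 and MCA972 as sensitive. The sample labels followed this except for 2 MCA969 tumors, W-1D and W-2D, which were labelled sensitive. The strain label was Ncr1Cre for the MCA943 tumors and Ncr1Cre R26DTA for all others, the second being an allele pair in which diphtheria toxin A is produced in cells that express Ncr1 and thereby deletes NKp46+ innate lymphocytes. The labels did not say whether this strain was the host or the mouse of the primary tumor. In the paper the lines were transplanted into C57BL/6 mice, and primary tumors arose in mice of both genotypes. The strain label cannot be told apart from the MCA943 line. A line is 1 primary tumor, so differences by sensitivity rest on 2 lines against 3.

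Collagens are proteins of 3 chains wound into a triple helix. Fibrillar collagens I, III and V assemble into the tensile fibrils of connective tissue and are the main products of fibroblasts, whereas collagen IV forms the sheet of basement membranes and is made in quantity by endothelial cells. Where a type has chains encoded by separate genes, these must be produced together for the mixed trimer to form. Prolines and lysines of the chains are hydroxylated, and the fibrils cross-linked, by dedicated enzymes.

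Between 27745104 and 46537062 counts were obtained per tumor. No 2 tumors had identical counts. Mesenchymal markers were abundant in every tumor, with a summed level from 8764 to 30509 CPM (counts scaled to a library of 1000000) over 10 genes, lowest in MCA948. Leukocyte markers summed to between 15 and 323 CPM over 12 genes, and adipocyte markers to at most 0.418 CPM over 5 genes. The endothelial sum over 11 genes ranged from 31.8 to 623 CPM. In such bulk tumors fewer cells of a type and less RNA per cell cannot be told apart. The library numbers in the labels fell into 3 sets that were unevenly spread over the lines, MCA943 lying in 1 set, MCA970 in another and MCA972 in the third. Nothing in the labels stated which tumors shared an animal or an implantation, so p-values measured the spread between these tumors. The tumor MCA969-W-2D had the lowest level of its line for 30 of the 38 tested collagen genes.

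**Figure D1:**
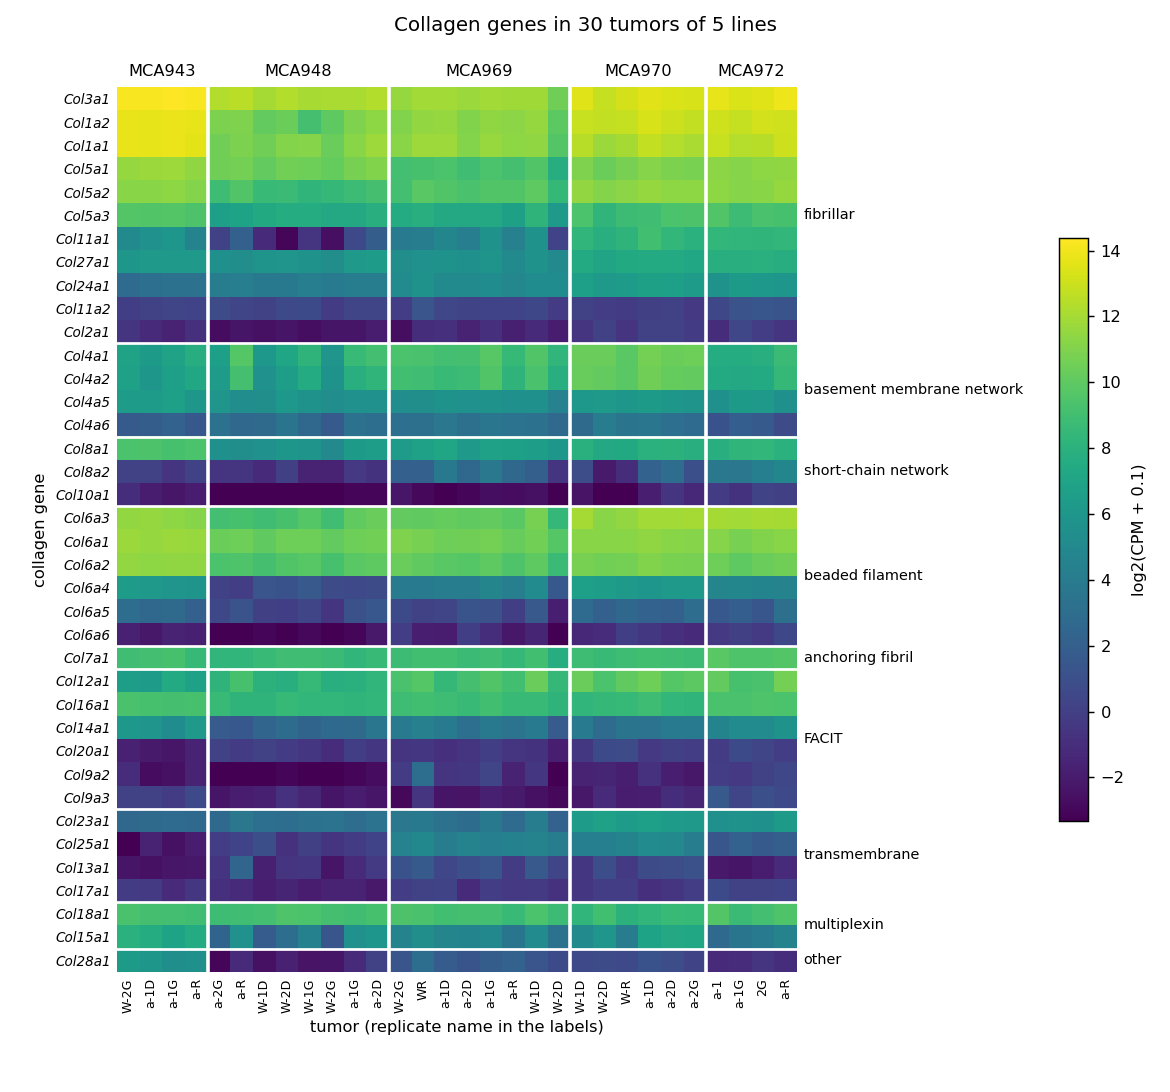
Level of the 38 tested collagen genes (rows, grouped by collagen type) in 30 tumors (columns, grouped by line), colored by log2(CPM + 0.1). The rows of Col1a1, Col1a2 and Col3a1 are brightest in MCA943, Col4a1 and Col4a2 in MCA970, and the column of MCA969-W-2D is darker than its neighbors.

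Collagen transcripts made up a share of all counts that differed several-fold between the lines. They accounted for 5.6 to 6.15% of counts in the MCA943 tumors, 3.95 to 5.02% in MCA972, 3.23 to 4.91% in MCA970, 1.24 to 2.17% in MCA948 and 0.735 to 2.27% in MCA969. The MCA943, MCA970 and MCA972 tumors all lay above every tumor of MCA948 and MCA969. The order of the lines by collagen output therefore did not follow their sensitivity to NK1.1+ cells, since the highest line and one of the lowest pair are both classed as non-sensitive.

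Divided by gene length, the fibrillar type carried most of this output in each line. Its summed level was 5946 ± 365 CPM per kb in MCA943 (SD, n = 4), 3727 ± 538 in MCA972 (n = 4), 3054 ± 531 in MCA970 (n = 6), 1193 ± 233 in MCA948 (n = 8) and 1113 ± 313 in MCA969 (n = 8). The beaded filament type followed, with 1314 ± 50.8 CPM per kb in MCA943 and 460 ± 78.6 in MCA948. The basement membrane type had another order of lines, being highest in MCA970 at 366 ± 58.6 CPM per kb and lowest in MCA943 at 46.5 ± 10.7. The transmembrane type was also highest in MCA970, at 18.1 ± 2.59 CPM per kb, and lowest in MCA943, at 1.30 ± 0.0698. The multiplexins were the most even, with line means between 66.7 and 109 CPM per kb.

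**Figure D2:**
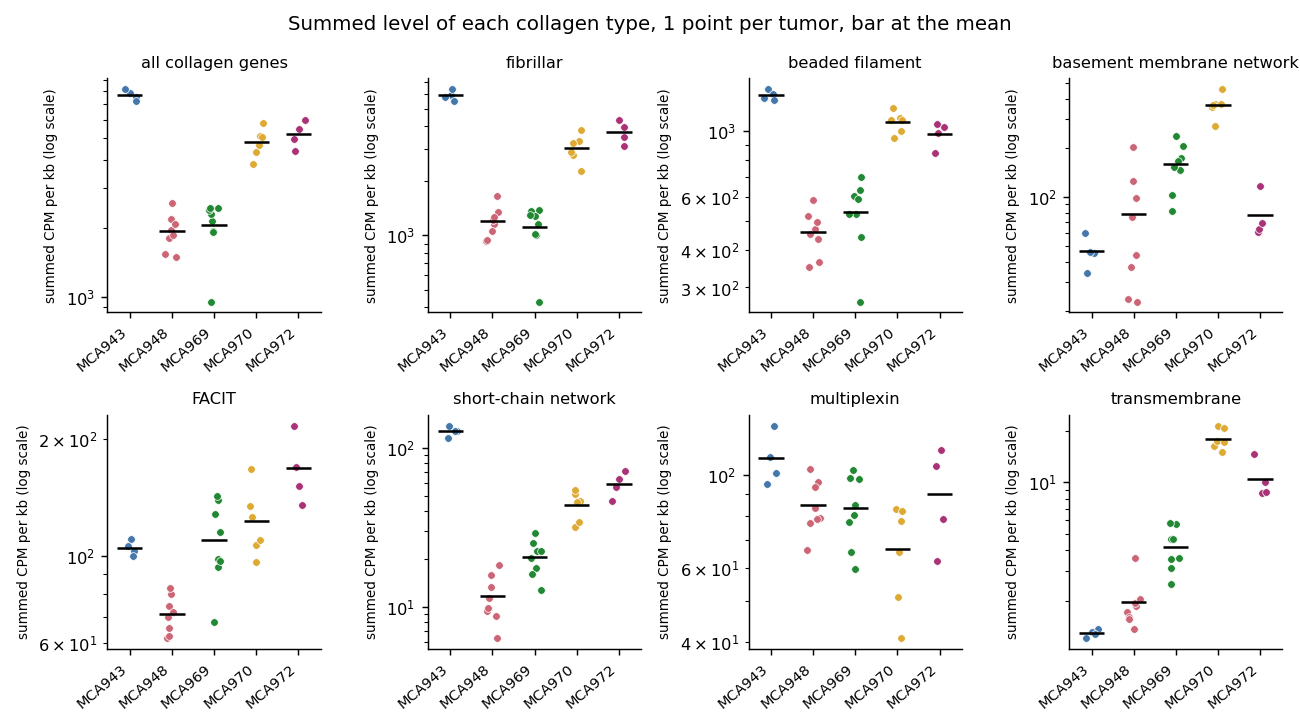
Summed CPM per kb (log scale) of all collagen genes and of 7 collagen types in the 5 lines, with 1 point per tumor and a bar at the line mean. Fibrillar and beaded filament sums are highest in MCA943, basement membrane and transmembrane sums in MCA970, and the multiplexin means span only 66.7 to 109 CPM per kb.

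Lines were compared in pairs with edgeR, all 30 tumors in 1 fit, and a gene was called when its Benjamini-Hochberg adjusted p over all 16862 genes tested was under 0.05 and its fold change at least 2. Of the 38 collagen genes, 34 were called in at least 1 of the 10 pairs, against 59.0% of all genes. Between MCA943 and MCA948, 28 were called (22 higher in MCA943), with 29.0% of all genes called. Between MCA943 and MCA969, 27 were called (17 higher in MCA943), against 27.0% of all genes. The pairs of MCA943 with MCA970 and MCA972 gave 17 and 18 calls, against 27.3% and 25.6% of all genes, and here most calls went the other way, 12 being lower in MCA943 in each pair.

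MCA948 and MCA969, the lines of lowest collagen output, differed in 14 members (20.8% of all genes). MCA948 differed from MCA970 in 26 members, all of them lower in MCA948 (29.4% of all genes), and from MCA972 in 25 members, 23 of them lower (26.8%). MCA969 differed from MCA970 in 20 members, 18 of them lower in MCA969 (21.4%), and from MCA972 in 24 members, 18 of them lower (20.6%). MCA970 and MCA972 differed in 13 members (17.6%), the fewest of any pair. The median log2 fold change over the 38 members was 1.6 for MCA943 against MCA948 and -1.78 for MCA948 against MCA970, with all-gene medians of -0.01 and -0.05. By line means, MCA948 held the lowest level for 21 of 38 members and the highest for 0, whereas MCA943 and MCA972 each held the highest level for 13 members and MCA970 for 10.

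With the library set as a covariate, 16 members were called in place of 27 for MCA943 against MCA969, 10 in place of 18 for MCA943 against MCA972, 9 in place of 14 for MCA948 against MCA969 and 7 in place of 13 for MCA970 against MCA972. Using only tumors of the same library set, which could be done for 5 pairs, each member called in the full fit kept its direction. Of those members, 27 of 28 were still called for MCA943 against MCA948, 23 of 24 for MCA969 against MCA972, 20 of 26 for MCA948 against MCA970 and 14 of 20 for MCA969 against MCA970. For MCA948 against MCA969, which then rested on 2 tumors a line, 1 of 14 was still called, with 0.54% of all genes called.

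**Figure D3:**
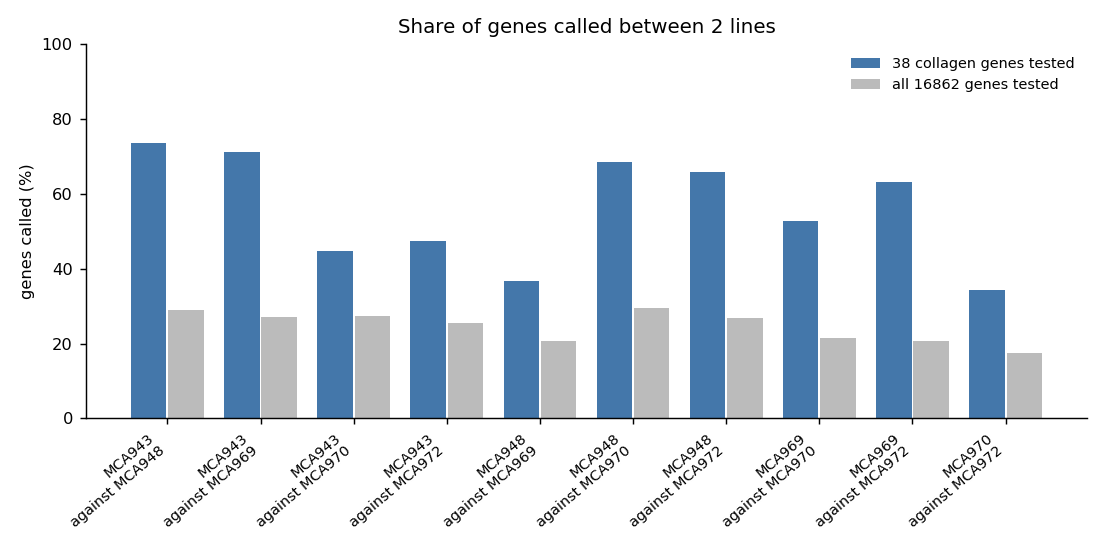
Percent of the 38 tested collagen genes (blue) and of all 16862 tested genes (grey) called in each of the 10 pairs of lines, with the pair on the horizontal axis. The blue bar is taller in every pair, from 34.2% against 17.6% for MCA970 against MCA972 to 73.7% against 29.0% for MCA943 against MCA948.

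The major fibrillar collagens were the most abundant members. Averaged over the 5 lines, Col3a1, the only chain of collagen III, reached 1029 CPM per kb, Col1a1 922 and Col1a2 554 with the gene length of the count table. With the length of the principal transcript instead, an alternative chosen after seeing the data, the values were 1815, 1020 and 1287 CPM per kb, so the order of Col1a1 and Col1a2 depended on the length used. Col1a1 encodes the chain present in 2 copies in collagen I and Col1a2 the chain present in 1.

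Col1a1 was higher in MCA943 than in each other line. Its level was 14318, 13540, 14734 and 12559 CPM in the MCA943 tumors and 7549, 5483, 5783 and 8447 CPM in those of MCA972. It ranged from 3280 to 6775 CPM in MCA970 (median 4956), from 778 to 3570 in MCA969 (median 2691) and from 1315 to 3540 in MCA948 (median 2045). No tumor of another line reached the MCA943 tumors. The smallest difference was to MCA972, a log2 fold change of 1.02 (SE 0.31, adjusted p = 0.00683), and the largest to MCA948, 2.73 (SE 0.26, adjusted p = 2.36e-10). The call against MCA972 lay at the fold threshold and fell just under it with DESeq2 size factors (0.98) or with scaling factors computed without collagen genes (0.99). It also fell under it on leaving out MCA972-a-1G (0.90), MCA972-2G (0.94), MCA943-a-1G (0.95) or MCA943-W-2G (0.99). With the library set as a covariate it had an adjusted p of 0.0673.

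Col3a1 and Col1a2, the partner chain named here because it completes collagen I, were also highest in MCA943 and lowest in MCA948 and MCA969. Col1a2 was 14205, 13765, 15058 and 13226 CPM in the MCA943 tumors and 7295 to 9196 CPM in MCA972. It ranged from 6839 to 9940 CPM in MCA970, 977 to 3068 in MCA969 and 559 to 2692 in MCA948. Col3a1 reached 18825, 18687, 21191 and 18792 CPM in the MCA943 tumors, a median of 10389 CPM in MCA970 (7293 to 12111), 4794 CPM in MCA948 (3994 to 5817) and 3759 CPM in MCA969 (1484 to 3956), and 13237, 10370, 11680 and 15393 CPM in MCA972. The level of MCA943 was 4.03-fold that of MCA948 (adjusted p = 7.63e-12) and 5.71-fold that of MCA969 (adjusted p = 1.46e-13), but only 1.53-fold that of MCA972 (adjusted p = 0.00936), below the fold threshold. For both genes the same 6 pairs were called, each joining one of the lines MCA943, MCA970 and MCA972 to MCA948 or MCA969. Between MCA970 and MCA972 their differences did not pass the test (Col3a1 log2 fold change -0.31, SE 0.18, adjusted p = 0.159, and Col1a2 -0.13, SE 0.28, adjusted p = 0.735).

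The sequences before the starts of Col1a2 and Col3a1 are shown because these genes were called in the same pairs of lines. RefSeq windows of the GRCm38.p6 build were found for 35 of the 44 members, and Col1a1 had none. The 250 bases before the annotated start are printed 5′ to 3′ on the strand of the gene, with motif matches in capitals. The motifs, searched on both strands, were the TATA box element TATAAA, the CCAAT box (spelled by its name) and the GC box element GGGCGG. The Col1a2 window is chr6:4505368-4505617 (plus strand) and the Col3a1 window chr1:45311288-45311537 (plus strand).
Col1a2: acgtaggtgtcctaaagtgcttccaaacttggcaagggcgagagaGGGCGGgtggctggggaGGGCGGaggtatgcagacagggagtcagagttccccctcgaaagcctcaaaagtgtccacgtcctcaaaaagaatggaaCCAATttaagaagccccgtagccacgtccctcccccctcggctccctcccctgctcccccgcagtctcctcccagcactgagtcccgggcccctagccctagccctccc
Col3a1: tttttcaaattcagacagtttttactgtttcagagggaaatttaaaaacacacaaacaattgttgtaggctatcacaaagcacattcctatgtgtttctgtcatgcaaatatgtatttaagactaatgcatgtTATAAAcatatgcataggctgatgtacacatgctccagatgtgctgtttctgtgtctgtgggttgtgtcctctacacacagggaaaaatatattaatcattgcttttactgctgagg
The Col1a2 window held GGGCGG at 2 places and CCAAT at 1 place. It is set by the RefSeq start and lies inside the gene as annotated by GENCODE, which begins at base 4504814. The Col3a1 window held TATAAA at 1 place, 117 to 112 bases before the start, and no match to the other motifs. Whether these matches act as promoter elements was not tested. Over the windows of all genes, 12.4% held TATAAA, 33.8% CCAAT and 32.7% GGGCGG. Of the 38 collagen windows (3 members had 2 annotated starts), 5 held TATAAA, 13 CCAAT and 22 GGGCGG.

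The minor fibrillar collagens V and XI, which co-assemble with collagens I and II and set fibril diameter, separated the lines differently. Col5a1 was lower in MCA969 than in each other line, and it was the only collagen gene called lower there against all 4 (0.516% of all genes). It ranged from 212 to 745 CPM in MCA969 (median 579), from 1134 to 2074 in MCA948 (median 1506) and from 1335 to 2333 in MCA970 (median 1857). It was 3020, 3280, 3466 and 2725 CPM in the MCA943 tumors and 2548, 2245, 2603 and 2754 CPM in those of MCA972. The MCA969 tumors lay below all others, and the smallest difference was a log2 fold change of -1.45 to MCA948 (SE 0.16, adjusted p = 9.02e-09). No collagen gene was called higher in MCA969 than in all 4 other lines (2.23% of all genes).

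Col5a2, the partner chain of Col5a1 in most collagen V, was lowest in MCA948 instead, with a median of 431 CPM there (299 to 752) and 2639 CPM in MCA970 (2145 to 3110). The ratio of Col5a1 to Col5a2 per kb was 3.84 ± 0.853 in MCA948 (SD, n = 8) and 1.47 ± 0.0641 in MCA943, 1.11 ± 0.101 in MCA972, 0.866 ± 0.133 in MCA969 and 0.779 ± 0.0480 in MCA970. The MCA948 tumors did not overlap with any other line, lying between 2.48 and 5.36. Exact two-sided permutation tests of the log2 ratio gave an adjusted p of 0.00617 for MCA948 against MCA943 and against MCA972 and 0.00407 against MCA969 and against MCA970, corrected over 110 tests of 11 chain ratios in 10 pairs.

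Col11a1 had the largest fitted difference between any pair of lines among the 38 members. MCA970 and MCA972 had nearly equal levels, with medians of 303 CPM (221 to 517) and 324 CPM (299 to 342), whereas the MCA943 tumors had 35.5, 50.01, 63.2 and 24.2 CPM. The MCA969 tumors had a median of 19.6 CPM (1.08 to 54.6, the lowest being W-2D) and the MCA948 tumors a median of 0.781 CPM (0.0253 to 4.19). Col11a1 was lower in MCA948 than in all 4 other lines, by a log2 fold change of -4.23 against MCA969 (SE 0.58, adjusted p = 3.63e-07) and -7.87 against MCA972 (SE 0.68, adjusted p = 5.77e-11). In MCA970 against MCA972 the log2 fold change was -0.00 (SE 0.60). Of the other fibrillar genes, Col5a3, Col24a1 and Col27a1 were called in 6 or 7 pairs each, and Col2a1 and Col11a2, the chains of cartilage fibrils, stayed at line means of at most 2.11 CPM.

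Collagen IV, the network of basement membranes, was led by Col4a1 and Col4a2, which form its common trimer. The genes lie head to head on chromosome 8, and their annotated first exons overlap on opposite strands over 22 bases at chr8:11312805-11312826 (GRCm38.p6, plus strand shown). The stretch is shown because reads from it could not be assigned without strand information and because the genes moved together. The capitals mark GGGCGG.
Col4a1 and Col4a2: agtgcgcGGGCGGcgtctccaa
The shared part is short against the 7464 and 6619 bases of the genes in the count table.

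Col4a1 and Col4a2 were higher in MCA970 than in all 4 other lines, and they were the only 2 collagen genes so called (1.59% of all genes). No collagen gene was called lower in MCA970 than in all others (1.03%). Col4a1 ranged from 922 to 1638 CPM in MCA970 (median 1321), from 326 to 859 in MCA969 (median 601) and from 60.8 to 817 in MCA948 (median 211). It was 201, 199, 230 and 420 CPM in the MCA972 tumors and 117, 78.8, 115 and 206 CPM in those of MCA943. The MCA970 tumors did not overlap with those of any other line, although MCA948 spanned more than 10-fold within itself. The smallest log2 fold changes were 1.15 for Col4a1 (SE 0.42, adjusted p = 0.0182) and 1.33 for Col4a2 (SE 0.39, adjusted p = 0.00435), both over MCA969, and the largest were 3.35 and 3.47 over MCA943. With the library set as a covariate the adjusted p of the smallest difference was 0.131 for Col4a1 and 0.0553 for Col4a2.

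The summed endothelial markers moved with both genes. The sum was 292 to 623 CPM in MCA970 (median 583), 97.9 to 339 in MCA969, 31.8 to 584 in MCA948, 72.5 to 181 in MCA972 and 87.5 to 178 in MCA943, and all 11 markers were detected. By line means, 8 of the 11 were highest in MCA970, with Cdh5 the largest at 236 CPM there, whereas Vwf and Ptprb were highest in MCA969 and Tek in MCA972. Within MCA948, the tumor with the lowest sum, W-2G, had 60.8 CPM of Col4a1 and 54.2 CPM of Col4a2, and the tumor with the highest, a-R, had 817 and 569 CPM. When the log2 endothelial sum was added to the fit as a covariate, a choice made after seeing the data, the log2 fold change of Col4a1 in MCA970 became 0.14 over MCA969 (adjusted p = 0.301), 0.51 over MCA972, 0.99 over MCA948 and 1.62 over MCA943 (adjusted p = 6.25e-10). That of Col4a2 became 0.47 over MCA969 (adjusted p = 0.00511), 0.83 over MCA972, 1.55 over MCA948 and 1.92 over MCA943. In this fit 7 of 38 collagen genes had a slope on the endothelial sum at an adjusted p under 0.05, against 4.85% of all genes. They were Col4a1, Col4a2, Col6a2, Col6a5, Col11a1, Col13a1 and Col15a1, and a doubling of the endothelial sum went with a log2 change of 0.86 in Col4a1 (SE 0.04) and 0.77 in Col4a2 (SE 0.05). Of 6 markers of mural cells, which surround vessels, 5 also had their highest line mean in MCA970, among them Rgs5 (47.0 CPM). The other, Cspg4, was highest in MCA943 (179 CPM). The part of endothelial cells in these differences was not tested further, and that of mural cells was not tested.

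**Figure D4:**
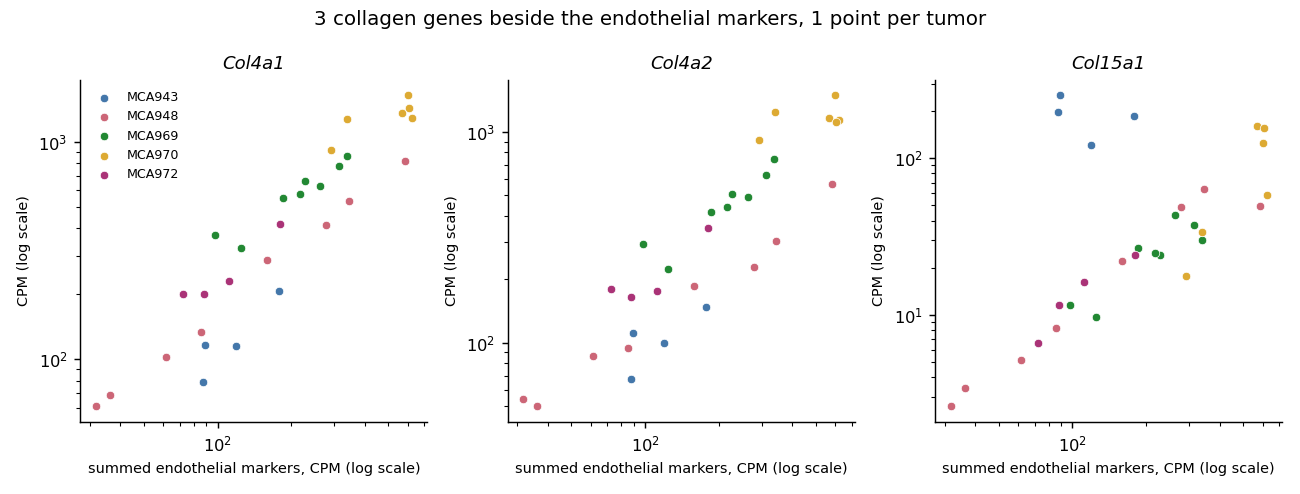
CPM of Col4a1, Col4a2 and Col15a1 (vertical, log scale) against the summed CPM of 11 endothelial markers (horizontal, log scale), with 1 point per tumor colored by line. Col4a1 and Col4a2 rise with the marker sum within and between lines, and Col15a1 does so except in MCA943, whose 4 tumors lie between 121 and 253 CPM at marker sums of 87.5 to 178 CPM.

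The ratio of Col4a1 to Col4a2 per kb stayed near 1, with line means from 0.993 in MCA970 to 1.29 in MCA948. The remaining chains of collagen IV were less abundant. Col4a5 was called in no pair, with line means from 44.8 to 85.4 CPM. Col4a6 was higher in MCA948, MCA969 and MCA970 (line means 7.63 to 10.5 CPM) than in MCA943 and MCA972 (3.52 and 2.68 CPM) in all 6 pairs that join these groups.

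Among the short-chain network collagens, the chains of collagen VIII had opposite high lines. Col8a1, found in vessel walls and the corneal basement membrane, was higher in MCA943 than in all 4 other lines. Its level was 649, 701, 586 and 650 CPM in the MCA943 tumors and 219, 311, 340 and 256 CPM in those of MCA972, with medians of 233 CPM in MCA970 (162 to 266), 102 in MCA969 (64.4 to 133) and 53.4 in MCA948 (31.9 to 92.5). The ranges of MCA943 and the other lines did not overlap, and the smallest log2 fold change was 1.20 over MCA972 (SE 0.24, adjusted p = 1.18e-04). With the library set as a covariate its adjusted p was 0.0586.

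Col8a2 was higher in MCA972 than in all 4 other lines, as was Col10a1, the collagen of hypertrophic cartilage, at under 1 CPM in each line mean (2 collagen genes, with 2.47% of all genes called higher in MCA972 and 1.10% lower, and no collagen gene lower). Col8a2 was 13.3, 12.9, 19.4 and 27.2 CPM in MCA972 and had medians of 5.16 CPM in MCA969 (0.5262 to 14.4), 1.80 in MCA970 (0.147 to 7.92) and 0.531 in MCA948 (0.237 to 0.911). The MCA943 tumors had 1.05, 1.01, 0.567 and 0.955 CPM. MCA972 and MCA969 overlapped, and the log2 fold change between them was 1.46 (SE 0.57, adjusted p = 0.0334). That call was lost on leaving out any of 5 single tumors (MCA969-W-2G, WR and W-1D, MCA972-2G and a-R), with an adjusted p of up to 0.120, without the filter on low counts (0.0769) and with the library set as a covariate (0.520), under which no collagen gene differed from all other lines in MCA972. Of the chondrocyte markers, Acan was highest in MCA972 (126 CPM, and 0 to 17.7 CPM in the other line means), whereas Sox9, Comp and Hapln1 were highest in MCA969, and their part was not tested.

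Collagen VI, whose chains form beaded microfilaments around cells, was abundant in each line. Col6a1 had the highest level of its type per kb, and its line means were 3263 ± 134 CPM in MCA943 (SD, n = 4), 2426 ± 141 in MCA970, 2099 ± 289 in MCA972, 1476 ± 347 in MCA969 and 1342 ± 170 in MCA948. It was called only in MCA943 against MCA948 (log2 fold change 1.28, SE 0.14, adjusted p = 1.81e-09) and MCA943 against MCA969 (1.14, SE 0.14, adjusted p = 2.56e-08). Col6a3, the large chain of the same trimer, had its highest level in MCA972 and MCA970 instead, with 4059, 3919, 4249 and 3997 CPM in the MCA972 tumors and a median of 3870 CPM in MCA970 (2446 to 4073). Its medians were 1092 CPM in MCA969 (346 to 1695) and 597 in MCA948 (483 to 1310), and the MCA943 tumors had 2904, 3005, 2599 and 2238 CPM. The ratio of Col6a3 to Col6a1 per kb was 0.717 ± 0.0996 in MCA972, 0.536 ± 0.108 in MCA970, 0.302 ± 0.0418 in MCA943, 0.260 ± 0.0695 in MCA969 and 0.197 ± 0.0614 in MCA948, and MCA943 did not overlap with MCA972 (exact permutation test, adjusted p = 0.0462) or with MCA970 (adjusted p = 0.0198).

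Col6a4, an alternative chain that can take the place of Col6a3, was lower in MCA948 than in all 4 other lines. It ranged from 0.819 to 2.97 CPM in MCA948 (median 1.56), from 63.3 to 99.97 in MCA970 (median 77.2) and from 2.88 to 37.4 in MCA969 (median 17.4, the lowest being W-2D). It was 89.2, 73.3, 60.7 and 57.7 CPM in MCA943 and 26.5, 27.8, 25.2 and 24.3 CPM in MCA972. The smallest log2 fold change was -3.46, against MCA969 (SE 0.31, adjusted p = 1.42e-10). In all, 6 collagen genes were lower in MCA948 than in every other line (5.68% of all genes), Col6a4 and Col11a1 with more than 10 CPM in some line and Col2a1, Col6a6, Col9a2 and Col17a1 below 2 CPM in all line means, and 0 were higher (0.753% of all genes). With the library set as a covariate, 3 collagen genes differed from all other lines in MCA948.

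Col7a1, which builds the anchoring fibrils that hold epithelia to the dermis, was called in no pair. Its medians were 527 CPM in MCA943, 399 in MCA948, 468 in MCA969, 473 in MCA970 and 757 in MCA972. The MCA972 level was 1.98-fold that of MCA948 (adjusted p = 7.97e-06), just under the fold threshold. Col4a5, Col16a1 and Col18a1 were the other 3 members called in no pair.

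Among the FACIT collagens, Col12a1, which binds the surface of collagen I fibrils, was lower in MCA943 than in all 4 other lines, the reverse of Col1a1. It was 91.1, 87.6, 178 and 109 CPM in the MCA943 tumors and 1092, 586, 618 and 1645 CPM in those of MCA972. Its medians were 996 CPM in MCA970 (646 to 1441), 598 in MCA969 (352 to 1263) and 282 in MCA948 (224 to 587). No MCA943 tumor reached the lowest tumor of another line, and the log2 fold change was -1.45 against MCA948 (SE 0.34, adjusted p = 5.26e-04) and -3.15 against MCA970 (SE 0.39, adjusted p = 5.73e-08). The ratio of Col12a1 to Col1a1 per kb was 0.00362 ± 0.00115 in MCA943 (SD, n = 4) and had line means of 0.0596 to 0.120 elsewhere, with no overlap (exact permutation tests, adjusted p from 0.00617 to 0.0462).

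Col12a1, Col20a1 and Col25a1 were the 3 collagen genes lower in MCA943 than in every other line (3.45% of all genes), and Col1a1, Col8a1 and Col28a1 the 3 that were higher (4.26% of all genes). Of these, Col20a1 was scarce, at 0.113 to 0.220 CPM in the MCA943 tumors and at most 1.06 CPM in any line mean. Col16a1, a FACIT collagen of fibroblasts and smooth muscle, had the highest level of its type per kb and line means from 332 ± 37.7 CPM in MCA948 to 654 ± 42.9 in MCA972. Its differences stayed below 2-fold in all pairs, the largest being 1.97-fold between those lines (adjusted p = 1.67e-08). Col9a2, a chain of the cartilage collagen IX, reached 8.49 CPM in MCA969-WR and at most 1.28 CPM in the MCA972 tumors. The same MCA969 tumor had the highest chondrocyte marker sum of all, 491 CPM.

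The transmembrane collagens Col23a1 and Col25a1, both shed from the cell surface, were scarce but sharply divided. Col25a1, first known from amyloid plaques, was 0.00, 0.222, 0.0756 and 0.171 CPM in the MCA943 tumors and 2.51, 4.57, 3.18 and 4.01 CPM in those of MCA972. Its medians were 22.5 CPM in MCA970 (17.8 to 37.5), 22.3 in MCA969 (18.1 to 31.1) and 0.876 in MCA948 (0.481 to 1.77). It was lower in MCA943 than in each other line, the smallest log2 fold change being -2.84 against MCA948 (SE 0.43, adjusted p = 1.44e-06), and it was called in 9 of 10 pairs, all but MCA969 against MCA970 (log2 fold change -0.17, SE 0.21, adjusted p = 0.509).

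Col23a1 followed another grouping, with medians of 85.0 CPM in MCA970 (75.2 to 112) and 50.9 CPM in MCA972 (46.8 to 81.0) against 11.2 in MCA969 (4.55 to 17.7), 9.06 in MCA948 (6.39 to 12.9) and 6.75 in MCA943 (6.03 to 7.07). All 6 pairs that join MCA970 or MCA972 to one of the other lines were called, with log2 fold changes of 2.40 or more, and no tumor of the higher pair overlapped with the other lines. The scarce Col13a1 was at most 1.97 CPM in any line mean. Its highest value, 5.44 CPM, was in MCA948-a-R, the tumor with the highest endothelial sum of its line.

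Of the multiplexins, which bind heparan sulfate chains near basement membranes and release anti-angiogenic fragments, Col18a1 was steady and Col15a1 was not. Col18a1 had line means from 367 ± 86.6 CPM in MCA970 (SD, n = 6) to 615 ± 168 in MCA972 (n = 4). Col15a1 was 253, 197, 121 and 186 CPM in the MCA943 tumors, and its medians were 91.8 CPM in MCA970 (17.7 to 160), 25.7 in MCA969 (9.72 to 43.3), 15.1 in MCA948 (2.60 to 63.5) and 13.9 in MCA972 (6.63 to 24.3). MCA943 was higher than MCA948, MCA969 and MCA972 by log2 fold changes of 2.89, 2.86 and 3.69 (adjusted p = 2.29e-04, 2.90e-04 and 4.79e-04), while the difference to MCA970 did not pass (1.04, SE 0.68, adjusted p = 0.186). A doubling of the endothelial sum went with a log2 change of 1.20 in Col15a1 (SE 0.13, adjusted p = 3.24e-08).

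**Figure D5:**
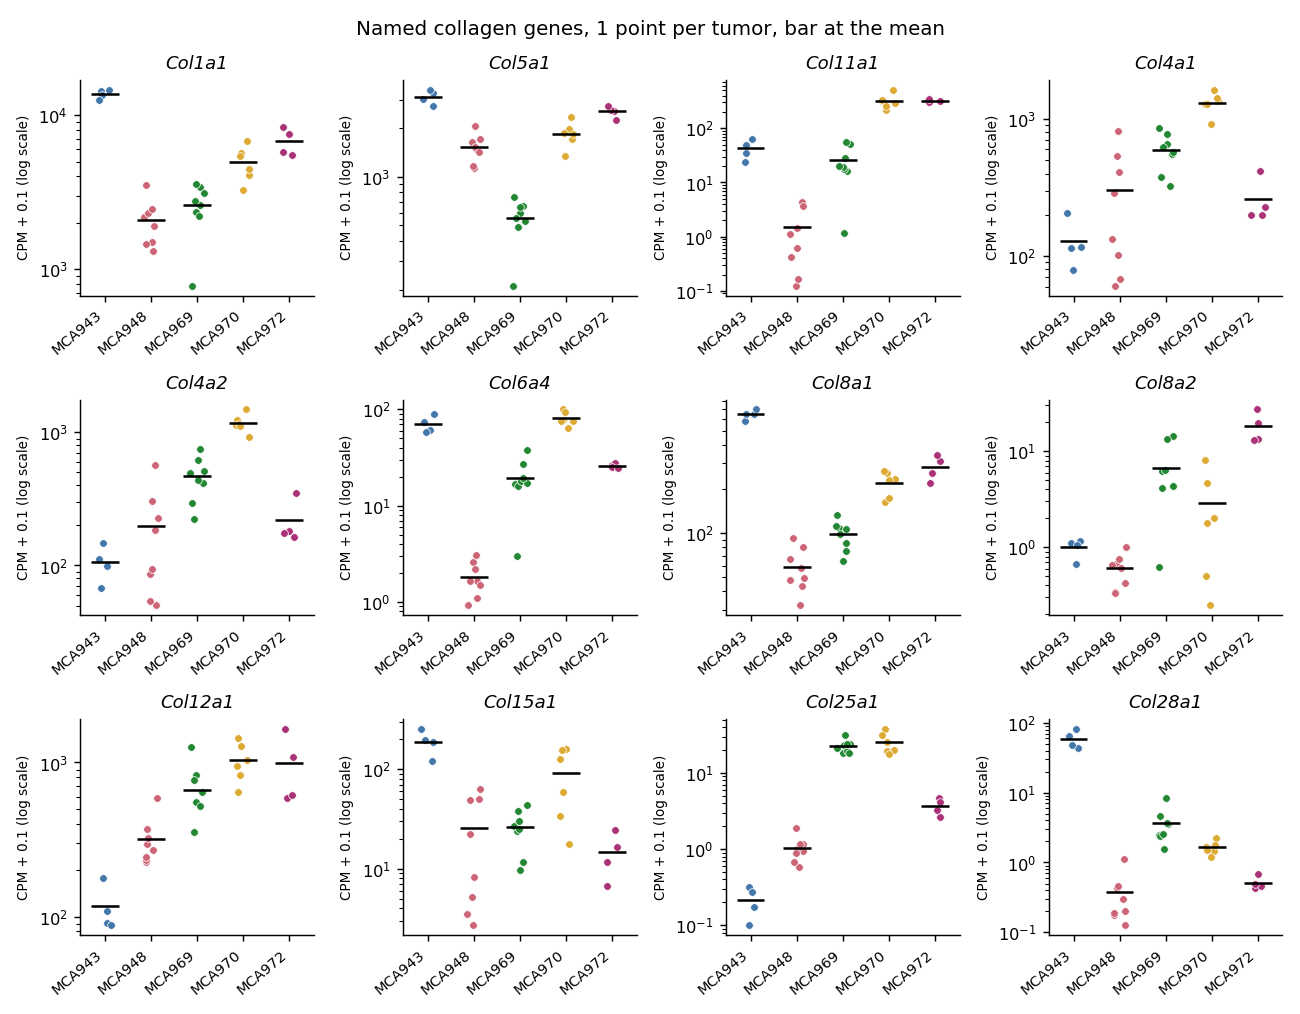
CPM + 0.1 (log scale) of 12 collagen genes in the 5 lines, with 1 point per tumor and a bar at the line mean. Col1a1, Col8a1 and Col28a1 are highest in MCA943, Col12a1 and Col25a1 lowest there, Col11a1 and Col6a4 lowest in MCA948, Col5a1 lowest in MCA969, and Col4a1 and Col4a2 highest in MCA970.

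Col28a1, a collagen with von Willebrand factor A domains best known from peripheral nerve, was the 1 member that followed the sensitivity of the lines to NK1.1+ cells. It was 81.1, 65.3, 44.1 and 47.6 CPM in the MCA943 tumors and 0.328, 0.367, 0.573 and 0.390 CPM in those of MCA972. Its medians were 2.95 CPM in MCA969 (1.45 to 8.4), 1.48 in MCA970 (1.11 to 2.12) and 0.152 in MCA948 (0.0261 to 1.01). MCA943 stood far above the rest, while the MCA969 tumors overlapped with those of MCA970. It was higher in both non-sensitive lines in all 6 comparisons with a sensitive line (0.652% of all genes), and no collagen gene was lower in all 6 (0.225%). The paper, from these same tumors, also lists Col28a1 as upregulated in non-sensitive tumors.

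The smallest of the 6 log2 fold changes of Col28a1 was 1.22, MCA969 over MCA970 (SE 0.38, adjusted p = 0.00676), and the largest 7.72, MCA943 over MCA948 (SE 0.46, adjusted p = 1.66e-14). Leaving out the tumor MCA969-WR, which had 8.4 CPM, lowered the smallest to 0.91 (adjusted p = 0.0238), below the fold threshold, and the library set as a covariate lowered it to 0.35 (adjusted p = 0.603). Against MCA969, the other non-sensitive line, MCA943 was higher by a log2 fold change of 4.05 (SE 0.38, adjusted p = 3.74e-10), more than separated MCA969 from MCA970. The Schwann cell markers did not move with it, their sum being 5.33 to 9.15 CPM in MCA943 and 35.0 to 44.4 CPM in MCA972, and the defining marker Sox10 was at most 0.0492 CPM in any line mean.

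The window before the start of Col28a1, chr6:8192618-8192867 (minus strand, 250 bases, GRCm38.p6 from RefSeq), is shown because this was the only member called in all 6 comparisons. None of the 3 motifs was found in it on either strand, so it has no capitals.
Col28a1: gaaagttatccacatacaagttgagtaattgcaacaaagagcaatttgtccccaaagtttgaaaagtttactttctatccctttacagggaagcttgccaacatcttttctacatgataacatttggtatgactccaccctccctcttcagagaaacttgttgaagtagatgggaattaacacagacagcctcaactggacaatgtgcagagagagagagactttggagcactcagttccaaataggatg

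The genes that modify, fold, cleave and cross-link collagen, or bind it at the cell surface, were read from a list of 43 genes, of which 42 were tested. Between MCA943 and MCA948, 19 of them were called (45.2%), 16 higher in MCA943 and 3 lower, with 29.0% of all genes called. Between MCA948 and MCA970, 18 were called (42.9%), 1 higher in MCA948 and 17 lower, with 29.4% of all genes called. These pairs had the largest shares, and 14.3 to 40.5% of the list was called in the others. The share was near or under that of all genes for MCA943 against MCA970 (28.6% and 27.3%) and against MCA972 (23.8% and 25.6%). The same held for MCA970 against MCA972 (14.3% and 17.6%). In MCA948, 8 of the 42 were lower than in all 4 other lines (5.68% of all genes) and 0 higher (0.753%). They included 3 of the 5 lysyl oxidases, which cross-link collagen, namely Lox (63.9 CPM in MCA948 and 192 to 1181 in the other line means), Loxl1 (62.9 and 203 to 707) and Loxl3 (43.7 and 181 to 664). They also included Adamts2, the procollagen N-proteinase (8.77 CPM and 40.1 to 198), the prolyl hydroxylases P4ha3 and P3h3, the chaperone Fkbp14 and the collagen receptor chain Itga11. The smallest log2 fold changes in MCA948 were -1.59 for Lox (adjusted p = 2.39e-04), -1.69 for Loxl1 (adjusted p = 8.15e-09), -2.05 for Loxl3 (adjusted p = 1.88e-10) and -2.20 for Adamts2 (adjusted p = 4.51e-05).

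In MCA943, Serpinh1, the collagen chaperone HSP47, was higher than in each other line (2133 CPM against line means of 585 to 986, smallest log2 fold change 1.11, largest adjusted p = 7.67e-06). So was Creb3l1, a transcription factor of collagen genes (121 CPM against 23.1 to 53.2, smallest log2 fold change 1.19, largest adjusted p = 1.51e-06), whereas the prolyl hydroxylase P3h2 was lower (0.815 CPM against 6.93 to 13.7, smallest log2 fold change -3.06, largest adjusted p = 6.67e-13). Loxl2 was lower in MCA969, with 202 CPM against 440 to 875. Adamts3 was the only gene of this list called in all 6 comparisons by sensitivity. It was lower in both non-sensitive lines (0.225% of all genes). The paper also lists Adamts3 as downregulated in non-sensitive tumors, but from these same tumors, so its list is not an independent result. The collagen receptor chains divided by line, with Itga10 highest in MCA969 (66.5 CPM) and lowest in MCA972 (3.55), Itga11 highest in MCA972 (113 CPM) and lowest in MCA948 (0.726), Itga1 highest in MCA970 (73.2 CPM) and Itga2 lowest in MCA972 (1.26 CPM).

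The 6 collagen genes left out of the tests stayed below 1 CPM in all line means. Col22a1 had the highest of these, 0.793 CPM in MCA969, which rested on 4.47 CPM in the tumor WR, and Col26a1 reached 0.791 CPM in the same tumor. At the depth of these libraries, 3 counts correspond to at most 0.108 CPM.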

How the data were processed

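RNA was sequenced from 30 CD45-depleted tumors. Per the submitters' processing notes, reads were aligned to GRCm38 with STAR 2.5.3a, handled with Picard and counted with featureCounts 1.5.2. The column names state that reads with the same molecular identifier had been removed. The authors deposited raw counts per gene, with the gene length over all exons. The annotation release and the strand setting are not given in the sources used here, so reads of overlapping genes cannot be told apart.

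Symbols were taken from the Ensembl identifiers with GENCODE M21, which named 48058 of 48440 genes. Counts were filtered with filterByExpr, scaled with TMM and fitted with edgeR 4.0.16 (quasi-likelihood test) with line as the only factor in R 4.3.3. Sample titles also carry a letter, W or a, that the labels do not explain. It was unevenly spread (1 W and 3 a in MCA943, 0 W in MCA972, equal numbers in the other lines) and was not used, so its part was not tested. CPM are counts scaled to a TMM-adjusted library of 1000000. The 10 pairs of lines were tested with Benjamini-Hochberg adjustment over 16862 genes at 0.05 and a fold change of 2. Totals ran from 27745104 to 46537062 counts, and 3 counts corresponded to 0.0645 to 0.108 CPM. The procedure was tested on simulated data. Ratios of chains were tested with exact two-sided permutation tests, for which 4 tumors against 4 cannot go below p = 0.0286. Alternatives were DESeq2 1.42.0, limma 3.58.1 with voom, other scaling and filters, leaving out each tumor, the library set and the title code as a block.

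The members and gene lists were chosen with earlier results of these data known. Collagen genes were named when they were among the 2 most abundant per kb of their type, differed in 1 direction from all 4 other lines, were among the 8 with the widest range of line means (both with at least 10 CPM in a line) or were called in each of the 6 pairs that join MCA943 or MCA969 to a line classed as sensitive. Genes of collagen modification and reception were named when they differed from all 4 other lines, and Adamts3 because it was called in each of those 6 pairs. Col1a2 and Col5a2 were named as chain partners, and all further members after their values were seen. Tumors with the same title code in different lines did not deviate together (62 pairs, median r = 0.01, from -0.43 to 0.44), so the codes were not taken as pairs.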

Additional observations from a re-analysis of the deposited data

Results flagged for a closer look

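Within the lines, 105 groups of tumors were tested with Dixon's gap test, for the 20 named collagen genes and the collagen share of counts. In 14 of them 1 tumor lay far from the others. The 1 in 20 level of this test assumes normal and independent values. CPM need not be normal and genes of the same tumors are not independent, so no excess over chance can be read from the count. In MCA969-W-2D, collagen genes took 0.735% of counts against 1.66 to 2.27% in the other tumors of the line, and Col3a1 was 1484 CPM against 3104 to 3956. MCA969-WR was high in Col28a1 (8.4 CPM against 1.46 to 4.56), Col25a1 (31.1 CPM against 18.1 to 24.04) and Col26a1 (0.791 CPM against at most 0.0786). MCA972-a-R was high in Col4a1 (420 CPM against 199 to 230) and Col4a2 (351 CPM against 164 to 181), and it had the highest endothelial sum of its line, 181 CPM.

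In MCA948, Col12a1 was 587 CPM in a-R against 224 to 368 in the others, Col25a1 was 1.77 CPM in W-1D against 0.481 to 1.08, and Col28a1 was 1.01 CPM in a-2D against 0.0261 to 0.361. Col3a1 was 21190 CPM in MCA943-a-1G against 18690 to 18820, and Col6a1 was 2703 CPM in MCA970-a-1D against 2301 to 2414. Col26a1 was 0.0247 CPM in MCA943-a-1D and 0 in the other tumors of that line, and 0.0968 CPM in MCA970-a-2G against at most 0.0311. These 2 values of Col26a1 lie near or under the level of 3 counts.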

How the results depend on the processing

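The 16 counts of called collagen genes (10 pairs, 5 lines and the 6 comparisons by sensitivity to NK1.1+ cells) stayed within 1.5 times their value under DESeq2, limma-voom, DESeq2 size factors, TMM without the collagen genes and a replicate block on the title code (26 calls for MCA943 against MCA948 with the block, 28 without it). No direction was reversed. Without the filter on low counts, MCA972 had 1 gene that differed from all other lines in place of 2. Without a fold threshold, 22 genes differed between MCA948 and MCA969 and 20 between MCA970 and MCA972, and 10, 11, 3, 5 and 5 differed from all other lines in MCA943, MCA948, MCA969, MCA970 and MCA972. With the library set as a covariate, calls fell to 16 for MCA943 against MCA969, 10 for MCA943 against MCA972, 9 for MCA948 against MCA969 and 7 for MCA970 against MCA972. The genes that differed from all other lines became 3 in MCA948, 2 in MCA969, 0 in MCA970 and 0 in MCA972, and 0 were called in all 6 comparisons. The cause was not tested. Within 1 library set, MCA948 against MCA969 gave 1 call from 2 tumors a line, with 0.54% of all genes called.

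Leaving out single tumors gave 1 to 2 genes for MCA969 (2 without WR or without any 1 MCA943 tumor), 1 to 2 for MCA972 (1 without MCA969-W-2G, WR or W-1D or MCA972-2G or a-R) and 0 to 1 for the 6 comparisons (0 without MCA969-WR). Precision is limited by 4 tumors in MCA943 and MCA972 and, for members under 1 CPM, by few counts per library.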
